A study of Drosophila melanogaster with 30 samples.

Results

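The 6 genes aay, CG6287, CG11899, CG3011, CG10621 and CG10623 encode enzymes of serine synthesis and of the one-carbon reactions that serine feeds. They were found by their names among the 17488 genes of each of 30 expression tables, 1 gene for each name, and all 6 passed the filter on low values that left 8335 genes for testing. They were picked because aay and CG10621 stand higher on a high-cholesterol diet, so that contrast is given here as values with no test.

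Cells make serine from the glycolytic intermediate 3-phosphoglycerate in successive steps, an oxidation, a transamination and a dephosphorylation. Serine then gives a carbon unit to folate as it becomes glycine, and it is also a building block of sphingolipids and a source of cysteine. Homocysteine, formed when the methyl donor S-adenosylmethionine is spent, is returned to methionine by homocysteine methyltransferases. In the fly midgut, enterocytes absorb dietary amino acids and sterols, and flies cannot make sterols themselves.

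Poly(A) RNA was sequenced from hand-dissected anterior (a1-3) and posterior (p1-4) midgut of mated Drosophila melanogaster females 10 to 12 days old. Flies of the strain y[1]w[1], called wild type, were kept on control food, on lipid-depleted food, or on high-cholesterol food with 0.2% cholesterol, which is 4 times the control level. The strains TI{TI}Hr96[1] and Hr96[2x] were kept on control food. Hr96 is a nuclear receptor that responds to cholesterol. Each of the 10 groups of region and condition had 3 libraries, each from a pool of 30 to 50 dissected pieces, and all flies were moved to their food as pupae and housed with males at one temperature. The labels do not say how Hr96[2x] was made. Each Hr96 group is 1 strain set against y[1]w[1], so allele and genetic background cannot be told apart. The labels do not say that replicates came from separate cultures, so p-values cover the spread among the libraries only, and that spread may be technical.

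Levels are scaled FPKM, which is the abundance per transcript length and library size (FPKM) after division by a factor per library, and they are given for replicates 1, 2 and 3 in that order or as mean ± SD (n = 3). Differences are on the log2(scaled FPKM + 1) scale, which understates the change of weakly expressed genes. A gene was called higher or lower where limma's test across all 8335 genes gave a Benjamini-Hochberg adjusted p under 0.05. With 3 libraries against 3, an exact permutation test of 1 gene could not go below p = 0.1.

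The libraries had features that bear on all results. Hr96 transcript read 43.4 to 67.9 in the 6 wild-type control libraries, 27.9 to 42.1 in the 6 Hr96[1] libraries and 63.8 to 80.3 in the 6 Hr96[2x] libraries. Over all 30 libraries it reached 179, so its highest value was in wild type on lipid-depleted or high-cholesterol food. The posterior regulator cad, a homeobox gene, read 23.8 to 59.7 in posterior libraries and 0 to 10.9 in anterior ones, with its highest anterior value in Hr96[1] replicate 1. In 8 of 10 groups the libraries nearest to each other were replicates 2 and 3, and replicate 1 of several groups stood apart. The summed level of 8 fat body markers was 1612 and 1895 in control replicate 1 of the anterior and posterior midgut, against 102 to 199 in control replicates 2 and 3. In bulk tissue, fewer cells of a type and less RNA per cell cannot be told apart.

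The first enzymes of the pathway are CG6287, which corresponds to the mammalian phosphoglycerate dehydrogenase that starts serine synthesis, and CG11899, which corresponds to the phosphoserine aminotransferase. The last is aay (astray), the phosphoserine phosphatase that releases serine. CG3011, named Shmt in the current annotation, is the serine hydroxymethyltransferase that moves a carbon from serine to folate. CG10621 and CG10623, the latter named Bhmt, are related homocysteine methyltransferases.

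In BDGP6 coordinates (dm6), aay (FBgn0023129) is a gene of 1 exon on the plus strand of 3L, 9423253 to 9424781, and encodes 270 residues. CG6287 (FBgn0032350) has 6 exons on the minus strand of 2L, 11151506 to 11155721, and CG11899 (FBgn0014427) has 3 exons on the plus strand of 3R, 29200454 to 29201770. CG3011 (FBgn0029823) lies on the minus strand of X, 5913067 to 5916797. CG10621 (FBgn0032726), at 18952206 to 18954431, and CG10623 (FBgn0032727), at 18955481 to 18957311, are neighbours on the minus strand of 2L with 1049 bases between them, and both encode 331 residues.

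Because the library kit does not mark strand, overlaps with other genes were checked. The whole of aay lies inside the span of a gene on the other strand, Atat (CG3967 in the tables), with which it shares 0 exon bases, and Atat read 3.69 to 7.17 in the 30 libraries. CG11899 shares 15 exon bases with Mesh1, which read 5.02 to 14.4. CG3011 shares 13 exon bases with CG12236, which read 1.84 to 4.29, and 110 with the antisense RNA CR44108, which was listed at 0 to 19.4. Reads in these shared bases cannot be assigned to a strand.

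On control food the 6 genes differed in level and hardly in region. CG6287 was the most abundant per length, at 119 ± 21.2 in anterior and 96.8 ± 22.7 in posterior midgut. CG11899 stood at 39.3 ± 8.80 and 29.7 ± 7.01, CG10623 at 33.6 ± 2.16 and 33.7 ± 1.53, and CG3011 at 25.4 ± 0.893 and 26.6 ± 1.66. The lowest were aay, at 18.3 ± 2.99 and 19.99 ± 1.91, and CG10621, at 15.1 ± 2.18 and 13.5 ± 3.72. Over all 30 libraries aay ranged from 14.9 to 464 (31.1 times), CG10621 from 10.4 to 171 (16.5 times), CG11899 from 10.2 to 126 (12.4 times) and CG10623 from 20.8 to 173 (8.29 times). The range was narrow for CG6287, 69.0 to 201 (2.92 times), and for CG3011, 23.4 to 63.6 (2.72 times). The authors' confidence limits spanned 1.97% to 13.5% of the value on either side.

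**Figure D1:**
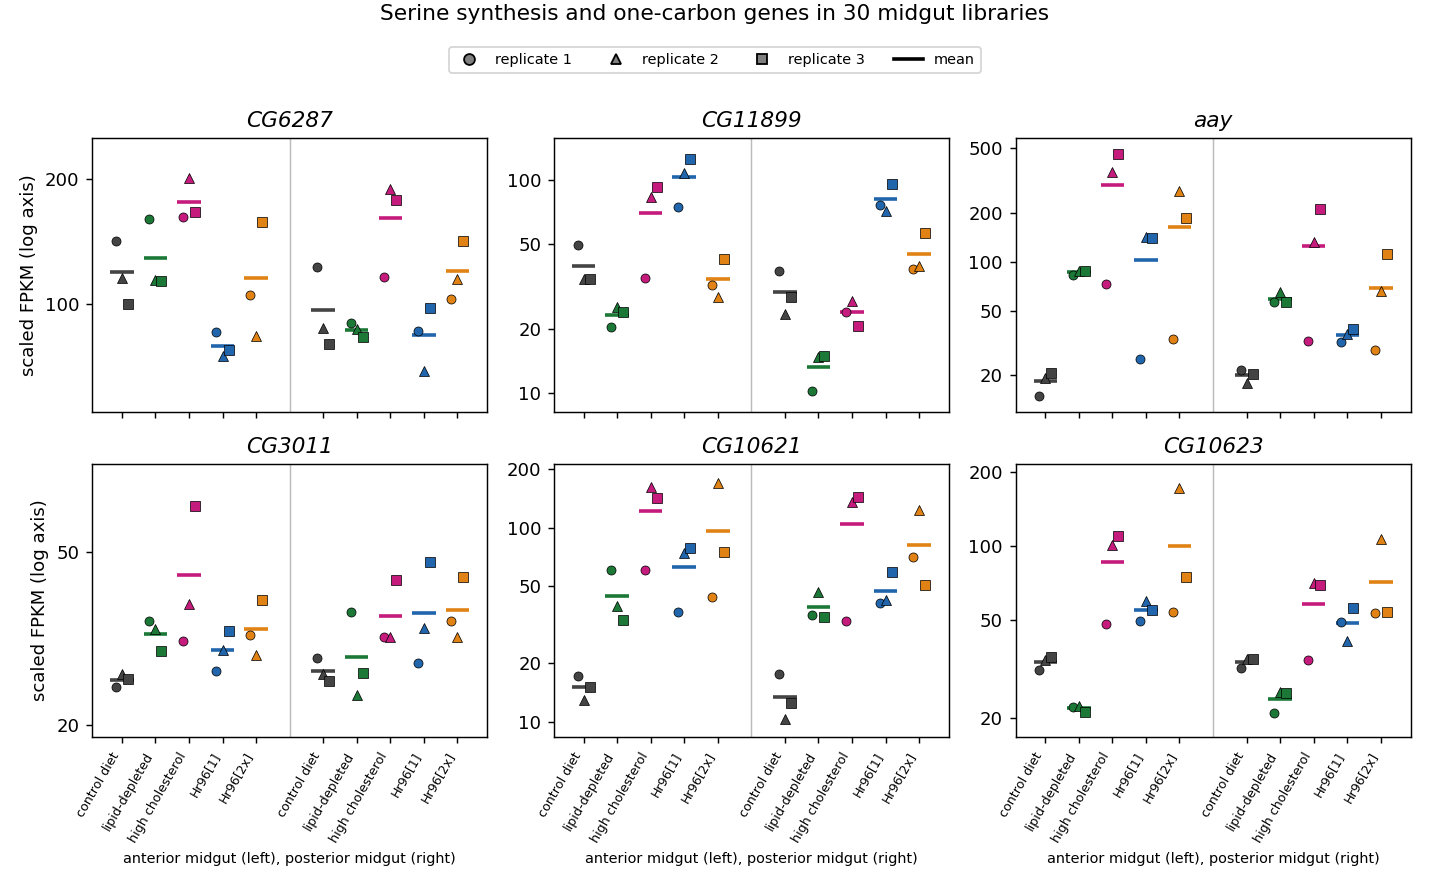
Scaled FPKM (log axes) of the 6 genes in each of 30 libraries, anterior groups to the left and posterior groups to the right of the grey line, with circles, triangles and squares for replicates 1, 2 and 3 and bars for the mean of 3. In the anterior high-cholesterol, Hr96[1] and Hr96[2x] groups the circle of aay (73.5, 25.1 and 33.5) sits far below the triangle and the square.

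High-cholesterol food gave the highest group means of aay and CG10621. In anterior midgut aay read 73.5, 358 and 464, against 14.9, 19.3 and 20.7 on control food, and in posterior midgut 32.6, 133 and 210.3, against 21.6, 17.9 and 20.4. Every high-cholesterol library was above every control library of its region, and replicate 1 was the lowest of the 3 in both regions. CG10621 stood at 60.5, 163 and 142 in anterior and 32.9, 136 and 144 in posterior midgut, against 17.3, 12.9 and 15.1 and 17.6, 10.4 and 12.4 on control food. Its groups did not overlap either, and again replicate 1 was the lowest. The ratio of group means was 16.3 anterior and 6.28 posterior for aay, and 8.07 and 7.73 for CG10621 (log2 3.60, 2.23, 2.82 and 2.63).

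The neighbour CG10623 stood at 48.0, 100.5 and 110.0 in anterior and 34.4, 70.6 and 69.3 in posterior midgut on high-cholesterol food, with control means of 33.6 and 33.7. In posterior midgut its replicate 1 was level with the control libraries. CG6287 stood at 162, 201 and 166 in anterior and 116, 189 and 178 in posterior midgut. CG3011 read 31.1, 37.8 and 63.6, and 31.9, 31.8 and 43.0. CG11899 differed between regions: it read 34.6, 82.8 and 92.5 in anterior midgut but 24.0, 26.9 and 20.5 in posterior midgut, where the control libraries read 23.5 to 37.3. The groups did not overlap for 5 of 6 genes in anterior and 3 of 6 in posterior midgut, where 21.5% and 13.7% of all 8335 genes did not overlap. The genes were chosen from this contrast, so nothing is read from these counts. Summed fat body markers (8 of 8 matched, Fbp1 at 0 in all 3 anterior high-cholesterol libraries) were 119 in anterior replicate 1 and 625 and 403 in replicates 2 and 3. The enterocyte markers (6 of 6 matched) summed to 114300, 233600 and 122500 in those libraries, all above the control range of 65430 to 87130. Of these 6, betaTry and Jon65Aiv were not among the tested genes, through a failed estimate in some library or a mean scaled FPKM under 1. Enterocyte sums here and below include them. The enteroendocrine markers (12 of 12 matched) summed to 261, 501 and 606, in the same replicate order as aay, against 161 to 394 on control food. That order was not general. In posterior high-cholesterol libraries they summed to 262, 261 and 234, and in anterior control libraries to 394, 177 and 161, each the reverse of aay. No marker of these lists was at 0 in all 3 anterior high-cholesterol libraries apart from Fbp1, and the part of the lists in these values was not tested.

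Across all 10 groups, the means of aay fell in the order anterior high cholesterol (299 ± 202), anterior Hr96[2x] (164 ± 121), posterior high cholesterol (125 ± 89.1), anterior Hr96[1] (102 ± 67.0), anterior lipid-depleted (86.2 ± 3.07), posterior Hr96[2x] (68.7 ± 41.5), posterior lipid-depleted (59.4 ± 4.66) and posterior Hr96[1] (35.5 ± 3.22), with both control groups last. Of the 9 neighbouring pairs in that order, only 2 did not overlap: posterior lipid-depleted above posterior Hr96[1], and posterior Hr96[1] above posterior control. For CG10621 the same order by mean ran from anterior high cholesterol (122 ± 54.0) down to posterior control (13.5 ± 3.72). Only 1 of its 9 neighbouring pairs did not overlap, posterior lipid-depleted (39.0 ± 6.61) above anterior control (15.1 ± 2.18). The orders are descriptions, since both genes were chosen for part of this pattern.

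Flies of the Hr96[1] strain on control food had more transcript of CG11899 and CG10621 in both regions. CG11899 stood at 74.8, 108 and 126 in anterior and 76.6, 71.5 and 96.1 in posterior midgut, against 49.4, 34.3 and 34.1 and 37.3, 23.5 and 28.3 in wild type. Every Hr96[1] library was above every wild-type library of its region. The difference was log2 1.36 (SE 0.283, adjusted p = 0.00145) in anterior and 1.44 (SE 0.283, adjusted p = 0.00139) in posterior midgut by limma. Both calls held without any 1 library.

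CG10621 stood at 36.6, 73.8 and 78.5 in anterior and 40.9, 42.3 and 59.0 in posterior Hr96[1] midgut, again with no overlap with wild type. It was higher by log2 1.92 (SE 0.503, adjusted p = 0.00841) and 1.75 (SE 0.503, adjusted p = 0.0230) by limma. The posterior call was lost without control replicate 2 (adjusted p = 0.0879), without control replicate 3 (0.0655) or without Hr96[1] replicate 3 (0.0981), while leaving out any other of the 6 libraries kept it.

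In anterior Hr96[1] midgut aay read 25.1, 143 and 139.6, so replicate 1 was close to the wild-type libraries and the other replicates were far above them. It was called higher (log2 2.08, SE 0.754, adjusted p = 0.0481 by limma), but the call held in only 1 of the 6 fits that left out 1 library (adjusted p = 0.00771 to 0.194) and in 4 of 10 other settings. In posterior midgut aay read 32.0, 35.9 and 38.4, all above the wild-type 21.6, 17.9 and 20.4, and was not called (log2 0.80, adjusted p = 0.536). Without replicate 1 in every group the posterior difference was 0.92 and called (adjusted p = 0.0271). That setting, here and below, was chosen after the data were seen. In anterior Hr96[1] replicate 1 the enterocyte markers (6 of 6 matched, betaTry and Jon65Aiv untested) summed to 85000, within the wild-type range of 65430 to 87130. Replicates 2 and 3, where aay was high, lay far below that range at 9105 and 7947. High aay did not go with a low enterocyte sum elsewhere. The sums were 1267, 1500 and 134300 in anterior Hr96[2x], where aay read 33.5, 273 and 186. They were 114300, 233600 and 122500 in anterior high-cholesterol libraries, where aay read 73.5, 358 and 464. The 5 Malpighian tubule markers (5 of 5 matched) summed to 282 in anterior Hr96[1] replicate 1, against 0.182 and 0.154 in Hr96[1] replicates 2 and 3. They summed to 0.293 to 7.72 in the wild-type libraries. Stem cell and enteroblast markers (8 of 8 matched) summed to 34.3, 82.2 and 86.0, against 35.2 to 50.3 in wild type. Ovary and germline markers (8 of 8) summed to 43.1, 1.53 and 1.55, against 2.12 to 12.6. Fat body markers (8 of 8) summed to 613, 178 and 181, against 158.5 to 1612. No marker of these 3 lists or of the tubule list was at 0 in all 3 libraries of either group. The part of these markers in the aay values was not tested. In anterior Hr96[2x] midgut the same tubule sum was 76.2, 0.383 and 0.215, again high in replicate 1.

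CG10623 stood at 49.6, 59.7 and 54.8 in anterior and 48.9, 41.2 and 55.9 in posterior Hr96[1] midgut, all above the wild-type libraries, and was not called (log2 0.69 and 0.51, adjusted p = 0.151 and 0.363 by limma). CG6287 was below every wild-type library in anterior midgut, at 85.6, 75.0 and 77.4 against 142, 116 and 100.3, without being called (log2 -0.57, adjusted p = 0.0664). CG3011 was not called in either region (log2 0.22 and 0.39). In all, 3 of 6 genes were called in anterior and 2 of 6 in posterior midgut, each of them higher, where 23.9% and 12.9% of all genes tested were called and 11.9% and 5.03% were called higher. Groups did not overlap for 6 of 6 and 4 of 6 genes, against 40.7% and 30.3% of all genes. Visceral muscle markers (10 of 10 matched, none at 0 in all 3 libraries) summed to 946 to 997 in anterior and 1241 to 1729 in posterior Hr96[1] libraries, against 515 to 584 and 721 to 860 in wild type. In posterior Hr96[1] the tubule markers summed to 302, 37.8 and 47.5, above the wild-type range of 1.01 to 20.1, and the hemocyte markers (4 of 4 matched) to 34.9 to 43.0, below the wild-type 67.4 to 121. The part of these lists in these differences was not tested. All comparisons of an Hr96 strain or of lipid-depleted food with control use the same control libraries as the high-cholesterol values above. Since aay and CG10621 were picked for standing above those libraries, their differences here lean toward higher. Nothing is read from the counts of members in these comparisons.

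The Hr96[2x] strain also had more CG10621, and in anterior midgut more CG10623 and aay. CG10621 stood at 43.8, 171 and 75.0 in anterior and 70.4, 123 and 50.5 in posterior midgut, in both regions with every library above wild type. It was higher by log2 2.39 (SE 0.503, adjusted p = 0.00184) and 2.44 (SE 0.503, adjusted p = 0.00200) by limma, and both calls held without any 1 library. CG10623 stood at 54.0, 173 and 74.5 in anterior and 53.6, 106 and 53.7 in posterior midgut. Its anterior difference was called (log2 1.37, SE 0.342, adjusted p = 0.00687; 0.0635 without Hr96[2x] replicate 2), and its posterior one was not (log2 0.98, adjusted p = 0.0693). The same library, replicate 2, held the highest value of both neighbouring genes in each region.

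In anterior Hr96[2x] midgut aay read 33.5, 273 and 186, all above wild type but with replicate 1 far below the others. It was called higher (log2 2.66, SE 0.754, adjusted p = 0.0162 by limma), and the call was lost without control replicate 1 (0.0538), Hr96[2x] replicate 2 (0.0978) or Hr96[2x] replicate 3 (0.0636), and with only the compared groups in the fit (0.0917; 0.101 for CG10623). In posterior midgut it read 28.5, 66.1 and 111, was above wild type in all 3 libraries, and was not called (log2 1.53, adjusted p = 0.226). CG6287, CG11899 and CG3011 were not called in either region, though CG11899 passed in 1 of 10 other settings in each, lower in anterior midgut on FPKM as deposited (log2 -0.69, adjusted p = 0.0354) and higher in posterior midgut without replicate 1 in every group (log2 0.85, adjusted p = 0.0225). In all, 3 of 6 genes were called in anterior and 1 of 6 in posterior midgut, each higher. Of all genes, 18.4% and 11.2% were called and 8.61% and 4.13% were called higher. For 4 of 6 and 5 of 6 the groups did not overlap, beside 36.2% and 33.7% of all genes. These counts include aay and CG10621, picked for standing above the same control libraries, so nothing is read from them. The enteroendocrine markers (12 of 12 matched, none at 0 in all 3 libraries) summed to 634 to 708 in anterior and 1017 to 1369 in posterior Hr96[2x] libraries, against 161 to 394 and 228 to 385 in wild type. The enterocyte sum (6 of 6 matched, betaTry at 0 in all 3 libraries) in anterior Hr96[2x] was 1267, 1500 and 134300, against 65430 to 87130 in wild type. In posterior Hr96[2x] it was 7180 to 9542 against 1781 to 3423. Whether the estimates of betaTry and Jon65Aiv, both untested, failed in these libraries is not given here, so that 0 may not mean absence. Hemocyte markers (4 of 4 matched) summed to 15.0 to 28.2 in anterior and 33.2 to 54.8 in posterior Hr96[2x], below the wild-type 30.1 to 36.8 and 67.4 to 121. Fat body markers in posterior Hr96[2x] summed to 24.5 to 68.5, below the wild-type 102 to 1895. The part of these lists in these differences was not tested.

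**Figure D2:**
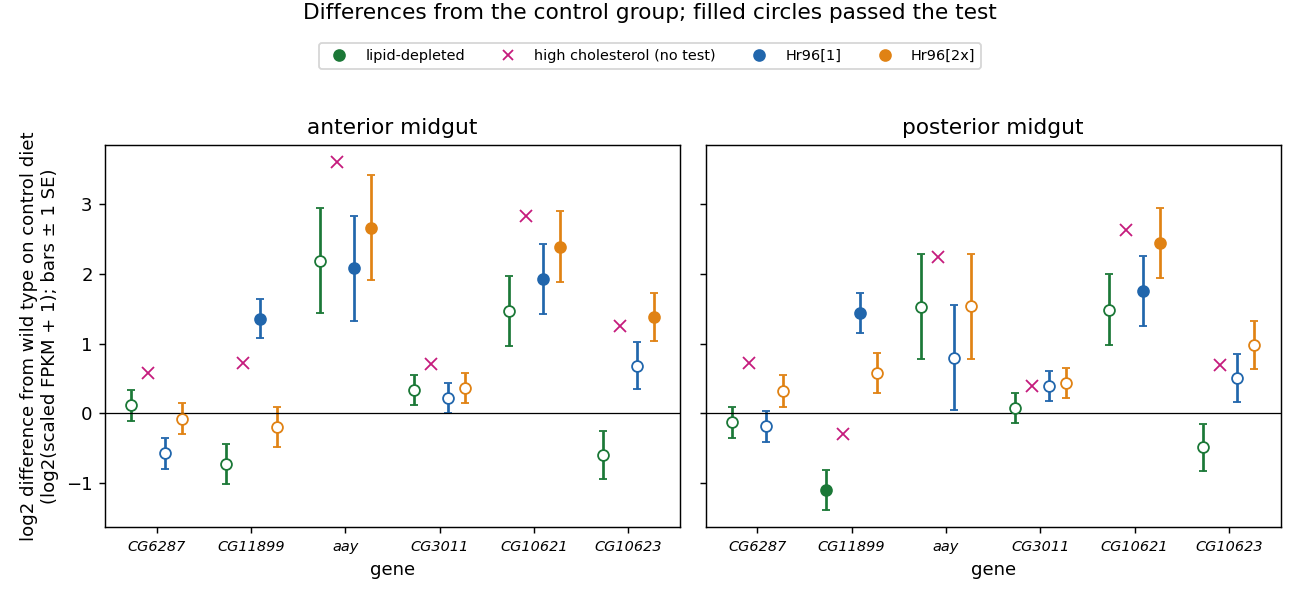
Log2 difference of each gene from wild type on control food, in anterior (left) and posterior (right) midgut, with bars of 1 SE from limma; filled circles passed the test, open circles did not, and crosses are the high-cholesterol values, which have no test. CG10621 is filled for both Hr96 strains in both regions, and CG11899 for Hr96[1] in both and, below 0, for the lipid-depleted posterior midgut.

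The strains themselves were then compared, a contrast with no library in common with the one that chose the genes. CG11899 was lower in Hr96[2x] than in Hr96[1] in anterior midgut, at 32.1, 28.2 and 42.3 against 74.8, 108 and 126 (log2 -1.55, SE 0.283, adjusted p = 0.000774 by limma), and the call held without any 1 library. In posterior midgut it read 38.1, 39.5 and 56.4 against 76.6, 71.5 and 96.1, with no overlap but no call (log2 -0.86, adjusted p = 0.0520). The other 5 genes were not called in either region; the 95% interval of the difference was -0.58 to 1.51 for anterior and -0.35 to 1.73 for posterior CG10621, and -0.98 to 2.14 and -0.82 to 2.30 for aay. So 1 of 6 genes was called in anterior and 0 of 6 in posterior midgut, where 9.59% and 10.7% of all genes were called (5.37% lower in anterior midgut), and the groups of 1 of 6 and 2 of 6 did not overlap, beside 24.6% and 27% of all genes.

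Lipid-depleted food gave steady values of aay well above control, yet only CG11899 was called. In anterior midgut aay read 82.7, 88.2 and 87.8 against 14.9, 19.3 and 20.7, and in posterior midgut 56.6, 64.8 and 56.7 against 21.6, 17.9 and 20.4. The 3 libraries of each group lay close together, and neither region overlapped with control. The differences of log2 2.19 and 1.53 were not called (SE 0.754, adjusted p = 0.132 and 0.342 by limma). The test shares 1 spread over all 10 groups, and the SD of aay was 3.07 and 4.66 in these groups and up to 202 in the others. With only the compared groups in the fit, both were called (adjusted p = 0.00638 and 0.00872), as they were without replicate 1 in every group (0.000430 and 0.00298). Over the 10 other settings the adjusted p ran from 0.000430 to 0.534 in anterior and from 0.00298 to 0.776 in posterior midgut.

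CG10621 stood at 60.6, 39.6 and 33.3 in anterior and 35.6, 46.7 and 34.8 in posterior midgut on lipid-depleted food, all above control. Its differences of log2 1.46 and 1.49 were not called (SE 0.503, adjusted p = 0.132 and 0.115), and both passed on FPKM as deposited (0.0192 and 0.0140; 0.0192 to 0.436 and 0.0140 to 0.523 over the 10 other settings). CG11899 lay below control, at 20.4, 25.2 and 23.8 in anterior midgut against a control range of 34.1 to 49.4, and at 10.2, 14.7 and 14.8 in posterior midgut against 23.5 to 37.3. The posterior fall was called (log2 -1.10, SE 0.283, adjusted p = 0.0274), but 5 of the 6 fits that left out 1 library lost it (adjusted p up to 0.178), and so did the fits without replicate 1 in every group (0.0659) and with only the compared groups (0.0845). The anterior difference was not called (log2 -0.72, adjusted p = 0.206).

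CG10623 was also below control in every lipid-depleted library, at 22.0, 22.3 and 21.2 in anterior and 20.8, 25.5 and 25.2 in posterior midgut, and was not called (log2 -0.60 and -0.49, adjusted p = 0.482 and 0.553 by limma). The neighbouring methyltransferase genes thus lay on opposite sides of control on this food, CG10621 above and CG10623 below, in all 6 libraries. CG6287 and CG3011 were not called. In all, 0 of 6 genes were called in anterior midgut and 1 of 6, lower, in posterior midgut, where 3.17% and 3.83% of all genes were called (2.44% lower in posterior midgut). Groups did not overlap for 5 of 6 and 4 of 6 genes, against 20.9% and 22.7% of all genes. The limit of the shared control libraries holds for these counts as well. Fat body markers (8 of 8 matched) summed to 174 to 244 in anterior and 82.3 to 221 in posterior lipid-depleted libraries. These sums were below the control replicate 1 values given above. They overlapped control replicates 2 and 3, at 199 and 158.5 in anterior and 102 and 159 in posterior midgut. Visceral muscle markers (10 of 10 matched) summed to 376 to 382 in anterior lipid-depleted libraries, below all control libraries at 515 to 584. Stem cell and enteroblast markers (8 of 8 matched) summed to 67.5 to 97.5 in posterior lipid-depleted libraries, against 31.8 to 71.9 in control. No marker of these lists was at 0 in all 3 libraries of those groups, and the part of the lists was not tested.

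The regions differed in CG11899 on high-cholesterol food. There it was lower in posterior midgut, at 24.0, 26.9 and 20.5 against 34.6, 82.8 and 92.5 (log2 -1.41, SE 0.283, adjusted p = 0.000828 by limma), and the call held without any 1 library but not with only the compared groups in the fit (0.0773). This contrast shares the high-cholesterol libraries with the choosing of the genes. It was 1 of 6 genes, beside 17.4% of all genes called and 8.77% called lower, and 1 of 6 with no overlap, beside 34.5%. On control food 0 of 6 genes were called or free of overlap, beside 14.7% and 36.6% of all genes. On lipid-depleted food 0 of 6 were called and 3 of 6 did not overlap (12.3% and 32.3% of all genes), in Hr96[1] 0 and 0 (14% and 23.6%), and in Hr96[2x] 0 and 0 (18.9% and 33.4%).

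Same-numbered anterior and posterior libraries deviated together on lipid-depleted food and in both Hr96 strains, and a fit with that pairing as a block changed some of these calls. That fit is the replicate block within condition, which was not planned. With it, posterior midgut was lower in CG6287 (log2 -0.55, adjusted p = 0.0121 by limma) and CG11899 (log2 -0.77, adjusted p = 0.0192) on lipid-depleted food. The groups of CG6287 were 90.2, 87.2 and 83.2 posterior and 161, 114.6 and 114 anterior. With the block, posterior midgut was also lower in aay in Hr96[1] (log2 -1.15, adjusted p = 0.0418) and in CG10623 in Hr96[2x] (log2 -0.39, adjusted p = 0.0362). In Hr96[1] the posterior and anterior values of aay were 32.0 and 25.1, 35.9 and 143, and 38.4 and 139.6, so pair 1 went against the other pairs. Over all other settings the adjusted p ran from 0.0121 to 0.668 for CG6287, from 0.0192 to 0.268 for CG11899, from 0.000159 to 0.871 for aay and from 0.0362 to 0.775 for CG10623 in these contrasts.

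No gene of the 6 was called for a difference between regions in its response to lipid-depleted food, to Hr96[1] or to Hr96[2x], where 0.576%, 0.408% and 0.36% of all genes were called. The widest was aay, with -0.66, -1.28 and -1.12 (SE 1.07, adjusted p = 0.973, 0.908 and 1.0 by limma). Without replicate 1 in every group, its response to Hr96[1] was smaller in posterior than in anterior midgut by log2 -1.84 (adjusted p = 0.0194).

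**Figure D3:**
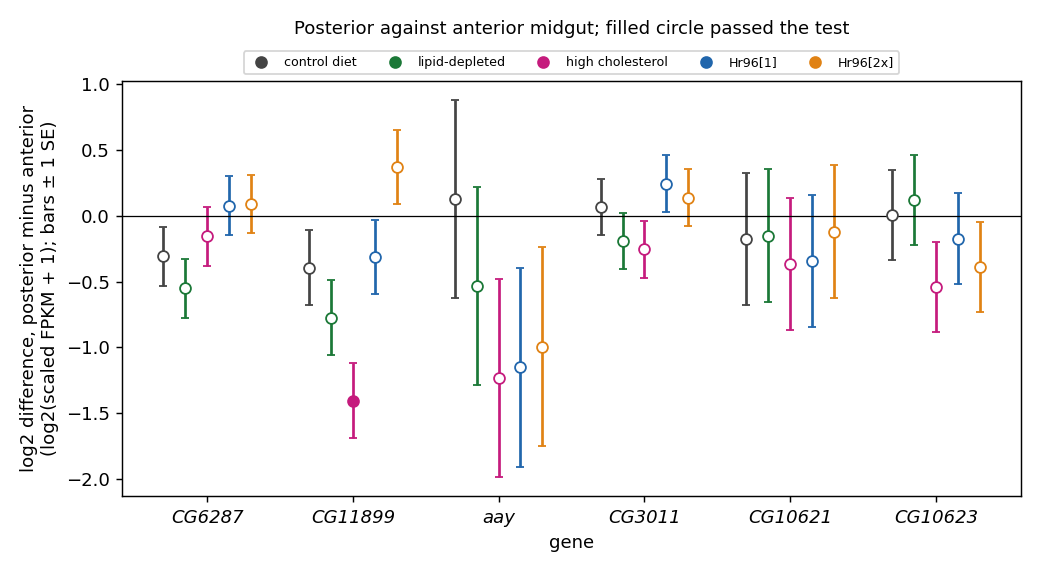
Log2 difference of posterior minus anterior midgut for each gene in the 5 conditions, with bars of 1 SE from limma; the filled circle passed the test. The only filled circle is CG11899 on high-cholesterol food, at -1.41, and aay has the widest bars.

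Replicate 1 was often the lowest library for some of these genes. Within the 10 groups, aay was lowest in replicate 1 in 9 and highest there in 1, and CG10623 was lowest there in 8 and highest in 0. CG10621 was lowest there in 5 and CG11899 in 5, and CG6287 was highest there in 5. Without replicate 1 in every group, aay was called on lipid-depleted food and in both Hr96 strains against control, in both regions. The limma adjusted p was at most 0.0271. That setting was chosen after the data were seen, so nothing is read from these aay calls. It raised the calls among all genes as well. In anterior midgut they went from 264 to 480 on lipid-depleted food, from 1993 to 2651 in Hr96[1] and from 1532 to 1616 in Hr96[2x]. In posterior midgut they went from 319 to 420, from 1077 to 1580 and from 934 to 1116, in the same order. Treating replicates 2 and 3 as 1 sample, by contrast, left none of the calls of the 6 genes given above (limma adjusted p = 0.0548 to 0.337). It also cut the calls among all genes, in Hr96[1] from 1993 to 681 in anterior and from 1077 to 361 in posterior midgut. In Hr96[2x] they went from 1532 to 584 and from 934 to 352. The nearest libraries of both Hr96[2x] groups were replicates 1 and 3, so the averaging does not follow the likeness there.

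Across the 30 libraries, aay and CG10621 varied together, with a Pearson r of 0.852 between their log2 values. The libraries share conditions, and both genes were chosen for being higher on high-cholesterol food, so r is a description. CG10621 and its neighbour CG10623 had r = 0.723 and aay and CG10623 had 0.571. CG11899 stood apart from aay (r = 0.168) and from CG6287 (r = -0.055), although these enzymes act in the same short pathway, and CG6287 had at most 0.465 with any of the others.

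**Figure D4:**
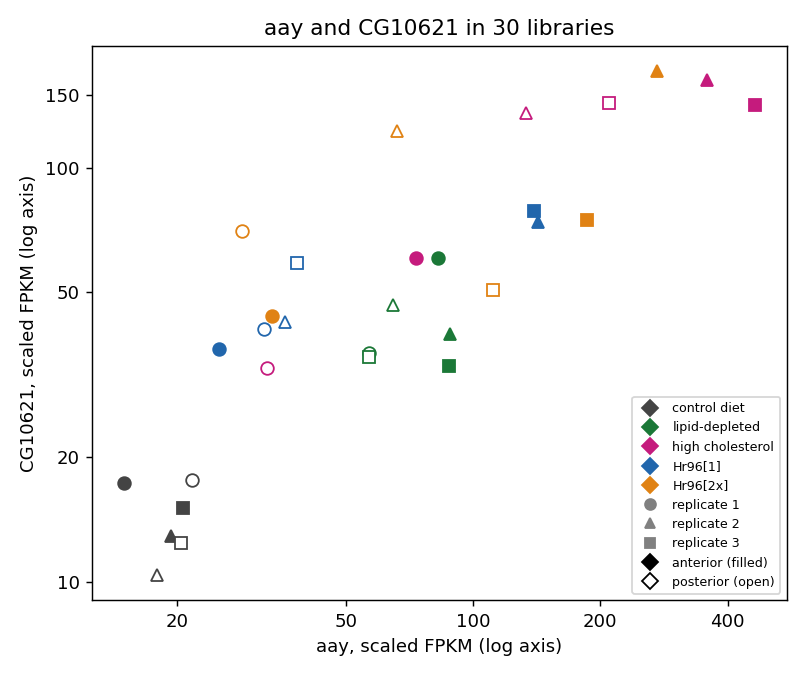
Scaled FPKM of aay against CG10621 (log axes) in the 30 libraries, coloured by condition, with the shape giving the replicate and filled points anterior. The 6 control libraries lie together at 14.9 to 21.6 for aay and 10.4 to 17.6 for CG10621, and every other library lies above them on both axes.

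Of all genes tested outside the 6, those closest to aay over the 30 libraries were CG32425 (r = 0.80), CG13315 (0.782) and Su(fu) (0.760), an inhibitor of Hedgehog signalling. Those closest to CG10621 were Jheh2 (0.883), a juvenile hormone epoxide hydrolase, CG8026 (0.854) and CG30339 (0.842). CG13315 read 1061 to 1798 in anterior control and 2146, 6725 and 6702 in anterior high-cholesterol libraries, with the same low replicate 1 as aay. CG8026 read 41.1 to 49.5 in the 6 control libraries and 102 to 248 in anterior high-cholesterol ones. Both genes were picked for following aay or CG10621 over these same libraries, so their values are descriptions only.

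The wider pathway was read from 8 lists of 74 genes, 73 of them matched in the tables and 65 tested. Called members numbered 3 on lipid-depleted, 4 on high-cholesterol, 16 in Hr96[1] and 10 in Hr96[2x] anterior midgut, or 4.6%, 6.2%, 24.6% and 15.4% of those tested, beside 3.17%, 3.52%, 23.9% and 18.4% of all genes. In posterior midgut they numbered 7, 1, 9 and 11, or 10.8%, 1.5%, 13.8% and 16.9%, beside 3.83%, 0.876%, 12.9% and 11.2% of all genes. The high-cholesterol shares are unsteady: 293 and 73 genes were called in anterior and posterior midgut, 29 to 704 and 13 to 249 without 1 library, and 0 and 4 with only the compared groups in the fit.

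Transcript of lace, of the list of serine-using enzymes, was lower in both Hr96 strains. The genes lace and Spt-I encode the subunits of serine palmitoyltransferase, which joins serine to a fatty acid. In anterior midgut lace read 54.0, 41.3 and 35.9 in Hr96[1] and 34.1, 26.8 and 44.8 in Hr96[2x], against 114, 80.5 and 88.0 in wild type. It fell by log2 -1.09 (adjusted p = 0.000580) and -1.40 (4.38e-05) in anterior and by -1.12 (0.000750) and -1.29 (0.000150) in posterior midgut by limma, and each call held without any 1 library. Spt-I fell in Hr96[1] by log2 -1.03 (adjusted p = 0.00312) in anterior and -1.21 (0.00128) in posterior midgut, and in Hr96[2x] by -0.78 in posterior midgut (0.0338, lost in 5 of 6 fits that left out 1 library). On high-cholesterol food lace read 93.7, 140.5 and 109 in anterior midgut, within or above its control values, and was not called. The list had 5 tested members of 8; the others that changed were Spat, a serine and alanine aminotransferase, higher in anterior Hr96[1] (log2 1.60, adjusted p = 0.0424), and CG8129, lower in posterior midgut on lipid-depleted food (-1.47, 0.0272) and higher in posterior Hr96[2x] (1.17, 0.0468). Each of these calls was lost in at least 4 of 6 fits that left out 1 library.

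In the folate cycle (7 tested of 8), calls were few. CG8665, a formyltetrahydrofolate dehydrogenase, was higher (log2 1.73, adjusted p = 0.0208) and thymidylate synthase Ts lower (-0.78, 0.0131) in anterior Hr96[1], and pug was lower on lipid-depleted food in anterior midgut (-0.86, 0.0244) by limma. Leaving out 1 library lost the call of CG8665 in 4, of Ts in 2 and of pug in 5 of 6 fits. On high-cholesterol food and in Hr96[2x] against wild type 0 of the 7 were called. The glycine cleavage list (3 tested of 6) had 0 called in these comparisons.

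In the methionine cycle and transsulfuration (8 tested of 8), Eip55E, the cystathionine gamma-lyase that makes cysteine, was higher in Hr96[2x] at 249 ± 80.2 against 104 ± 19.1 in anterior and 112 ± 15.2 against 59.3 ± 14.5 in posterior midgut (log2 1.22 and 0.92, adjusted p = 0.00146 and 0.0169 by limma). Ahcy89E was lower on lipid-depleted food in posterior midgut (-0.95, 0.0361). Leaving out 1 library lost the posterior call of Eip55E in 4 and that of Ahcy89E in 5 of 6 fits. The other 6 members were called in 0 of the comparisons with control. The median of this list on high-cholesterol food was 0.61 in anterior and 0.41 in posterior midgut, beside 0.00 and 0.01 for all genes, with 0 of 8 called.

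Upstream and downstream of serine, changes were few. Of 12 glycolytic genes, ImpL3, the lactate dehydrogenase, was called in comparisons with control, lower in Hr96[2x] by log2 -1.18 (adjusted p = 0.00415) in anterior and -2.18 (7.53e-06) in posterior midgut by limma. Against Hr96[1], ImpL3 was lower in Hr96[2x] in both regions (adjusted p = 0.0271 and 2.54e-05) and Eno, the enolase, was as well (-0.67 and -0.65), with PyK, the pyruvate kinase, lower in posterior midgut (-0.55). The calls of Eno and PyK were each lost in 4 of 6 fits that left out 1 library, and the anterior one of ImpL3 in 3. Of 7 tested genes of purine synthesis, Prat was higher in anterior Hr96[1] (0.52, adjusted p = 0.0312) and ade3 lower in anterior Hr96[2x] (-0.98, 0.000192); the call of Prat was lost in 4 of 6 such fits.

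Among 10 regulators of amino acid and endoplasmic reticulum stress, Sesn was called in 5 comparisons with control. It encodes sestrin, which restrains the growth kinase complex TORC1. On high-cholesterol food its anterior libraries were at 31.3, 52.3 and 53.6 and its posterior ones at 54.9, 89.6 and 96.4, against 18.6, 7.99 and 7.39 and 39.9, 19.3 and 17.3 on control food. It was higher on high-cholesterol food (log2 2.00 and 1.67, adjusted p = 0.00192 and 0.0100), in Hr96[2x] (1.78 and 1.43, 0.000579 and 0.00548) and in anterior Hr96[1] (0.98, 0.0335, lost in 5 of 6 fits that left out 1 library) by limma. The posterior high-cholesterol call was lost in 4 of 6 such fits, without control replicate 2 or 3 or high-cholesterol replicate 2 or 3. Both high-cholesterol calls were lost with only the compared groups in the fit (adjusted p = 0.155 and 0.306 for Sesn) and with replicates 2 and 3 averaged (0.405 and 1.0). Thor, the translation repressor 4E-BP, was higher in anterior midgut on lipid-depleted food (1.53, 0.0375, lost in 6 of 6 such fits) and on high-cholesterol food (1.61, 0.0244, lost in 4 of 6).

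The gene for the fly ATF4 factor, crc, which is known as an activator of serine synthesis genes in mammals, was called higher in 0 of the comparisons with control. It was lower in posterior Hr96[1] and Hr96[2x] midgut (log2 -0.59 and -0.64, adjusted p = 0.00885 and 0.00547 by limma). The kinase gene PEK was lower in anterior Hr96[1] (-1.04), anterior Hr96[2x] (-0.64) and posterior Hr96[1] (-0.80), trbl was lower in Hr96[1] (-1.33 anterior, -1.18 posterior) and in Hr96[2x] (-1.19 and -1.24), and Ire1 was lower in posterior Hr96[1] (-0.72). Without 1 library, trbl calls held in 5 of 6 fits in anterior Hr96[1], and in 4 and 3 of 6 in anterior and posterior Hr96[2x]. In posterior Hr96[1], Ire1 held in 4 of 6 and crc in 5 of 6. With only the compared groups in the fit, the calls of crc, Ire1, anterior trbl and posterior PEK were lost. Transcript levels of these regulators do not report the activity of their proteins.

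**Figure D5:**
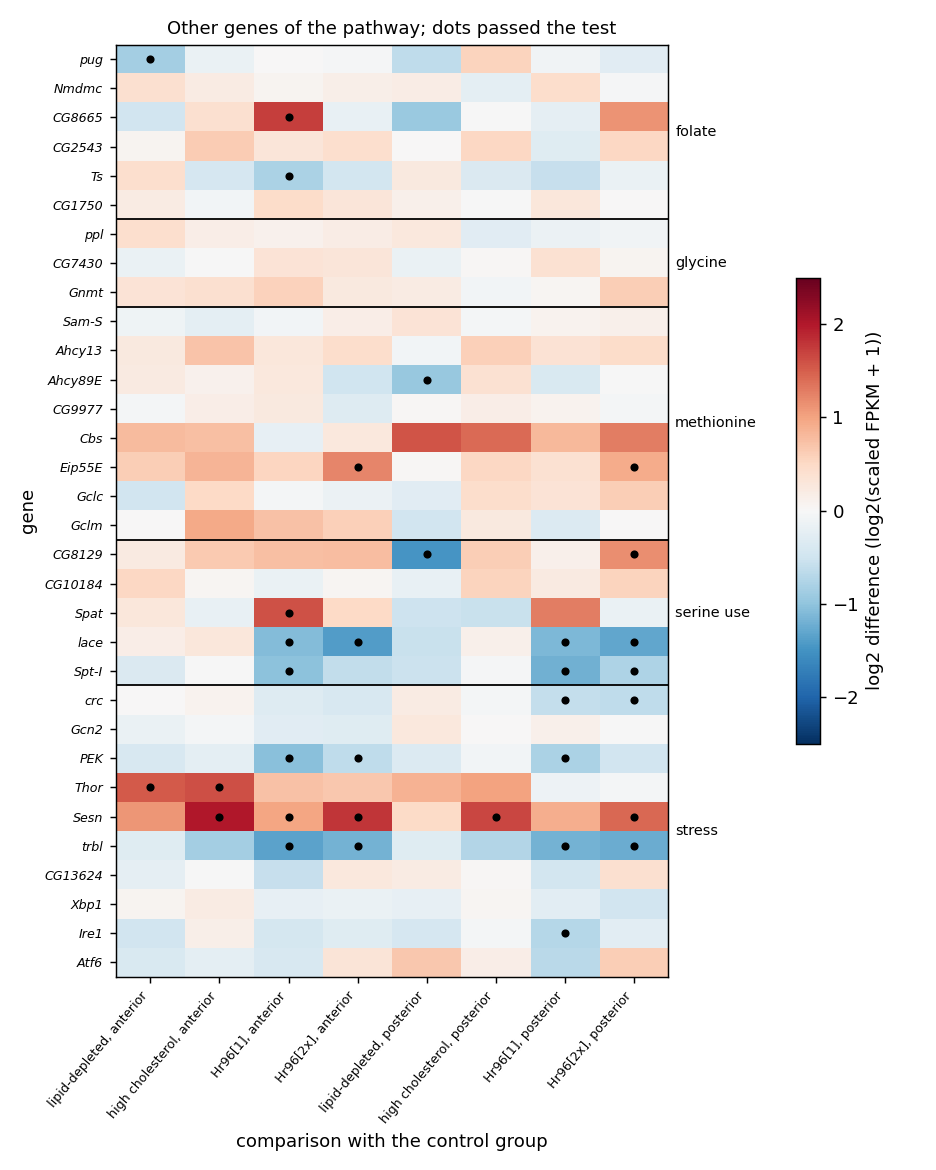
Log2 difference from the control group (colour) of the tested genes, less 1 that is not shown, of 5 of the 8 lists in 8 comparisons, with a black dot where limma's test was passed; red is higher and blue lower. The rows of lace and Spt-I are blue in the Hr96 columns, and the row of Sesn carries dots in 5 of the 8 columns.

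Amino acid transporters (13 tested of 14) included 4 called higher and 2 lower in anterior Hr96[1], 2 and 1 in anterior Hr96[2x], 2 and 0 in posterior Hr96[1] and 3 and 0 in posterior Hr96[2x]. On lipid-depleted food 0 were called higher and 1 lower in anterior and 2 and 3 in posterior midgut, and on high-cholesterol food 1 and 1 in anterior and 0 and 0 in posterior midgut. The shares of all genes called in these comparisons are those given for the lists as a whole. CG4991, of the proton-coupled family, read 21.9 ± 7.49 in anterior control midgut and was higher on high-cholesterol food (log2 1.96, adjusted p = 0.00749), in anterior Hr96[1] (1.44, 0.0106) and in Hr96[2x] in anterior (1.92, 0.00140) and posterior midgut (1.58, 0.00914) by limma. Without 1 library these CG4991 calls held, in that order, in 4, 3, 6 and 5 of 6 fits. Its high-cholesterol and Hr96[1] calls were lost with only the compared groups in the fit and with replicates 2 and 3 averaged. CG8785, of the same family, was lower in anterior midgut on lipid-depleted food (-1.33, 0.00861) and higher in anterior Hr96[1] (1.38, 0.00128) and Hr96[2x] (1.90, 5.58e-05). NAAT1, a sodium-coupled transporter, fell in posterior midgut on lipid-depleted food from 150 ± 46.2 to 13.4 ± 2.84 (-3.37, 0.000333), and slif fell there as well (-2.05, 0.00446). CG9413 rose in posterior Hr96[1] and Hr96[2x] midgut (2.53 and 2.53, 3.73e-06 and 3.78e-06).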

How the data were processed

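Per the submitters' processing notes, reads were handled with bcl2fastq 2.17.1.14, Bowtie2 2.2.9, TopHat2 2.1.1 and Cufflinks 2.2.1 on the dm6 genome. The authors deposited 1 table of Cufflinks FPKM values per library, with confidence limits and an estimate status. The tables hold no counts, so depth is unknown.

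The 103 genes with a failed estimate in any library were left out of the scaling factors and the tests. Marker sums kept every matched gene, tested or not, so a sum may hold values of genes whose estimate failed in some library. Each library was divided by a median-of-ratios factor (0.537 to 1.45) over 8584 genes above 0 in all libraries. The 8335 genes averaging 1 or more scaled FPKM were tested with limma 3.58.1 in R 4.3.3, with trend, on log2(scaled FPKM + 1). The model had 10 group means and 20 residual degrees of freedom, and tests were 2-sided with Benjamini-Hochberg adjustment in each comparison. Tables and figures used Python 3.11.15, pandas 2.3.3 and matplotlib 3.10.9.

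The 6 members, the gene lists and the alternatives were chosen with earlier results of these data known. From each list and comparison, the called genes of lowest adjusted p, at most 3, were named, and the 3 tested genes with the highest Pearson r were named for aay and CG10621. The posterior Hr96[1] value of trbl was added after it was seen. Replicate numbers are those of the labels. By the correlation of same-numbered libraries' deviations (over 0.1 for each number), they paired the regions on lipid-depleted food (0.200 to 0.388), in Hr96[1] (0.297 to 0.521) and in Hr96[2x] (0.205 to 0.271), and the strains in anterior midgut (0.143 to 0.318).

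On simulated data modelled on lipid-depleted against control anterior midgut, with 8335 genes and 200 changed, the fit found 65.1% of changes of log2 1 and 91.6% of log2 2, with 5.36% of calls false. Alternatives were other pseudocounts, scalings and filters, replicate blocks, fits to the compared groups only, replicates 2 and 3 averaged, and libraries left out. Protein, promoter and motif sequences were not analysed here. Results for 1 gene of the lists are not reported here, though the lists' counts include it.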

Additional observations from a re-analysis of the deposited data

Results flagged for a closer look

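None of the 6 members is listed here, and groups of 3 libraries are too small for the gap test used on outlying samples. Among the amino acid transporters, 2 genes responded differently in the 2 regions by the test of that difference itself.

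NAAT1 read 0.270, 0.757 and 0.767 in anterior control and 0.896, 3.91 and 4.24 in anterior lipid-depleted libraries, against 122, 203 and 124 and 10.5, 16.2 and 13.3 in posterior ones. Its response to lipid-depleted food differed between regions by log2 -4.58 (adjusted p = 0.00293 by limma), a call kept in 12 of 12 fits without 1 library and 10 of 11 other settings. CG9413 read 4.56, 3.79 and 5.23 in posterior control and 30.8, 56.6 and 16.3 in posterior Hr96[2x] libraries, with 0.561 to 1.78 in the anterior ones. Its response to Hr96[2x] differed between regions by log2 2.92 (adjusted p = 0.000719 by limma), also kept in 12 of 12 and 10 of 11.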

How the results depend on the processing

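Over 40 results on the members and 661 alternative values, 567 kept direction and side of the threshold, 39 lost and 48 gained the call and 7 changed sign without a call. Sign changes: CG10623, posterior against anterior, was 0.18 on high-cholesterol food and 0.39 in Hr96[2x] on FPKM as deposited, with -0.74 to 0.088 in Hr96[2x] without 1 library, positive without anterior replicate 2. CG6287 without 1 library was -0.04 to 0.21 in Hr96[1], negative without posterior replicate 3, and -0.12 to 0.34 in Hr96[2x], negative without anterior replicate 2 and, at -0.04, without posterior replicate 3. CG11899 in anterior Hr96[2x] was 0.015 without replicate 1 in every group.

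Members called were, on FPKM as deposited, 1 in Hr96[2x] against Hr96[1] and 2 in Hr96[2x] against wild type (posterior), 1 and 2 on lipid-depleted food (anterior, posterior), and 2 and 3 between regions of Hr96[1] and Hr96[2x]; there the median of all genes moved by 0.35 to 0.65 between regions and by -0.47 in the anterior high-cholesterol contrast. With only the compared groups, counts were 1 in anterior Hr96[2x], 2 and 2 on lipid-depleted food, and 0 and 2 between regions on high-cholesterol and lipid-depleted food. A pseudocount of 5 gave 1 between strains in posterior midgut; quantile scaling gave 1 there, 2 in posterior Hr96[2x], 2 in posterior lipid-depleted midgut and 1 between its regions. The replicate block gave 1 between strains and 2 in Hr96[2x] in posterior midgut and 1 in anterior lipid-depleted midgut. The block within condition, which was not planned, gave 1, 1, 3 and 2 between regions of Hr96[1], Hr96[2x], high cholesterol and lipid depletion. With replicates 2 and 3 averaged, 0 were called in either strain or region, in posterior lipid-depleted midgut, between strains or between regions on high cholesterol. Without replicate 1 in every group (chosen after seeing the data), counts were 2 between strains and 4 in Hr96[2x] in posterior midgut, 1 and 2 on lipid-depleted food, 1, 1 and 2 between regions of Hr96[1], Hr96[2x] and high cholesterol, and 1 for the regional difference in the Hr96[1] response. Leaving out 1 library gave 2 to 3 and 1 to 2 in Hr96[1] (anterior, posterior), 1 to 3 and 1 to 1 in Hr96[2x], 0 to 1 in posterior lipid-depleted midgut, and 1 to 1 and 0 to 1 between strains. Over the settings other than leaving out 1 library, the highest counts were 4 in anterior Hr96[2x] and 3 in posterior Hr96[1]. Of 1142 alternative values for called list genes, 892 kept and 250 lost the call, and 0 changed sign. Depth is unknown, so no counting limits are given.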

Other observations

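The genes closest to the other members over the 30 libraries, named after their values were seen, were CG30339 for CG10623 (Pearson r = 0.903), hebe (0.856), CG7420 (0.836) and Tk (0.816) for CG11899, Atg4a (0.825) and Ahcy13 (0.781) for CG3011, and CG44250 (0.864) for CG6287. Tk encodes the enteroendocrine peptide tachykinin, and Ahcy13 the adenosylhomocysteinase that yields homocysteine. CG30339 was also among the 3 genes closest to CG10621. The libraries share conditions and regions, so these values are descriptions.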
